A study of Mus musculus with 12 samples.

Results

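Mouse gastric organoids kept with Fusobacterium nucleatum were set directly against organoids kept with Neisseria subflava, 3 libraries against 3, which are 6 of the 12 libraries in the study. Organoids are small epithelial structures grown in a gel, here from stomach, and each library is a count of RNA reads per gene. Per the labels, the organoids were first grown in matrigel with their usual medium and moved at first passage onto matrigel in medium lacking growth factors and antibiotics, and bacteria were left with them for 4 h. Another 3 libraries came from untreated organoids and 3 from organoids kept with Helicobacter pylori, and the untreated values are given below for reference. The labels used here name no bacterial strain, dose or state of growth, no mouse strain, sex or age, and no separate cultures or animals behind the 3 libraries of a group. The p-values therefore measure only the spread between these libraries, which may be technical. In whole organoids, fewer cells of a type and less RNA per cell cannot be told apart.

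Neisseria organoids carried far more transcript of oxygen-regulated genes, glycolytic enzymes, the amino acid stress response and the protein folding machinery of the endoplasmic reticulum than Fusobacterium organoids. They also held more Ccl20, Cxcl5, Nos2, Duoxa2 and Cd14. Fusobacterium organoids carried more of Gclc (glutathione synthesis), Srxn1 (peroxide repair) and Osgin1 (induced by oxidative stress). The whole list of 31 NRF2 and glutathione genes was divided, with 14 higher with Fusobacterium and 10 with Neisseria. EGF receptor ligands and their feedback inhibitors, and Notch and Wnt target genes, were mostly higher with Fusobacterium. Some of the best-known inflammatory transcripts, such as Cxcl2, Nfkbia and Nfkbiz, did not pass the test between the bacteria.

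Total counts lay between 16955155 and 18192411 in the Fusobacterium libraries and between 19202660 and 22204586 in the Neisseria libraries. Of 25759 genes in the table, 12805 passed the filter on low counts. With edgeR's quasi-likelihood test and a Benjamini-Hochberg adjusted p under 0.05, 8527 genes (66.6%) differed, 4156 higher with Fusobacterium (32.5%) and 4371 higher with Neisseria (34.1%). At least 2-fold differences were found for 1848 genes (14.4%), of which 1208 were higher with Fusobacterium (9.43%) and 640 with Neisseria (5%). The libraries of the groups did not overlap for 70.7% of tested genes, so a gene whose groups do not overlap is common here. Levels are given as CPM, read counts scaled to a common library size, after TMM scaling (normalised CPM), and are written library by library in the order of replicates 1, 2 and 3. Of the genes at least 2-fold apart, 424 of the 1208 and 81 of the 640 were under 1 normalised CPM in untreated organoids. Such genes could pass the filter through the group where they are high. Differences are log2 fold changes, Fusobacterium minus Neisseria, ± standard error, and every adjusted p below is from the edgeR test over all tested genes. Untreated values and other means are mean ± SD (n = 3).

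**Figure D1:**
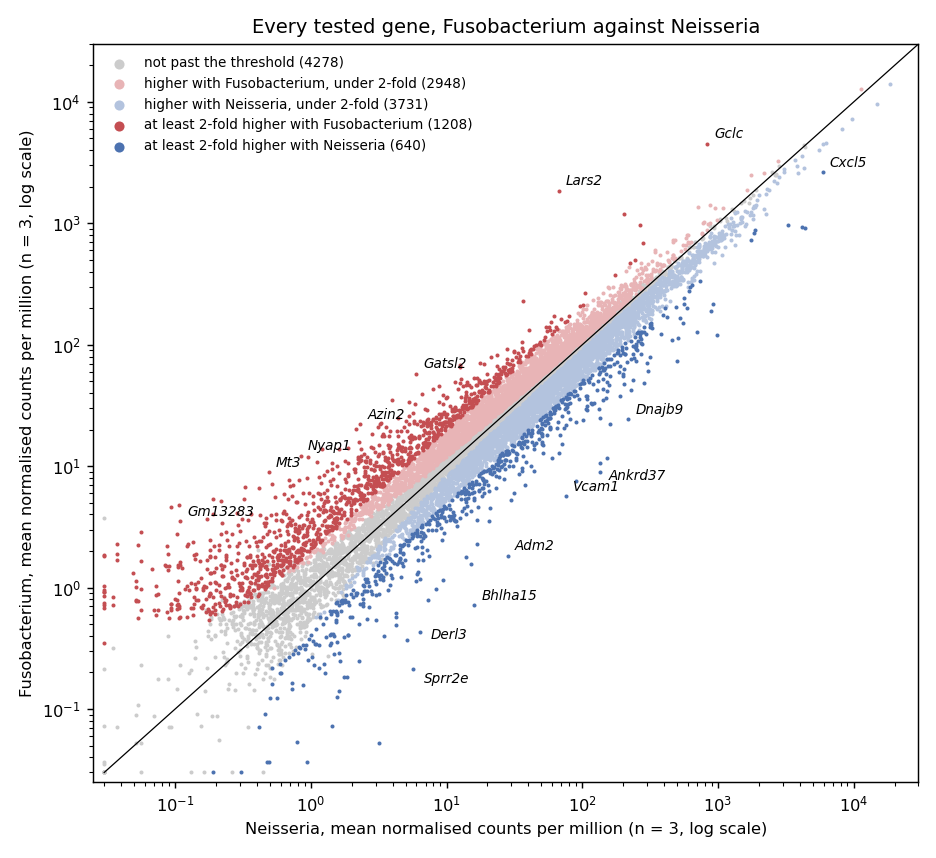
Mean normalised CPM of each tested gene in the Neisseria libraries (x axis, log scale) and the Fusobacterium libraries (y axis, log scale), n = 3 each, with points under the axis start drawn at its edge. The 1208 genes at least 2-fold higher with Fusobacterium reach from scarce genes up to Gclc and Lars2, while the 640 at least 2-fold higher with Neisseria include abundant genes such as Cxcl5.

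The scaling matters for small differences. TMM scaling placed the median log2 difference of all tested genes at -0.0059, whereas the deposited TPM values, which are scaled for gene length, placed it at 0.19 and plain library totals at 0.15, on log2 of the mean plus 1. The share of called genes that were higher with Fusobacterium was 48.7% after TMM scaling, 65.9% with library totals alone and 70.8% with limma on log2(TPM + 1). Lists with small medians that change sides are named as such below.

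**Figure D2:**
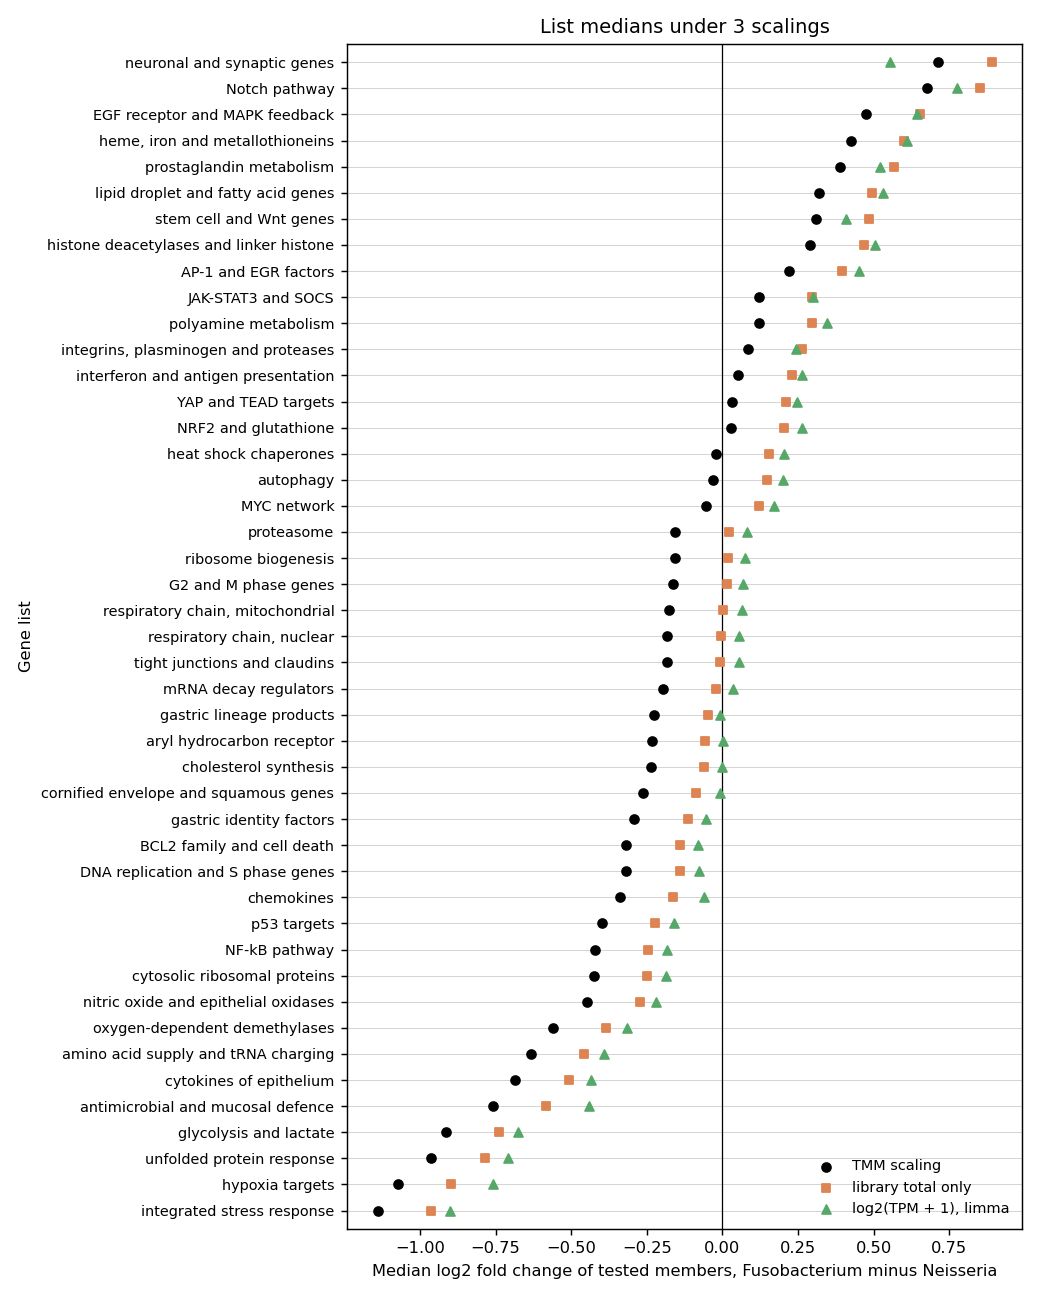
Median log2 fold change of the tested members of each gene list (x axis, Fusobacterium minus Neisseria) under 3 scalings, 1 row per list. Most medians move to the right under library totals and log2(TPM + 1), by amounts that differ between lists, and that of the neuronal list moves to the left under log2(TPM + 1). Some lists near 0 change side, while the integrated stress response list stays at -0.96 and -0.90.

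The epithelium was checked against cell markers. All 21 gastric epithelial markers were detected in each of the 6 libraries, with a summed level of 30502 to 31244 TPM with Fusobacterium and 30138 to 30717 TPM with Neisseria. By the test, 12 of these 21 were higher with Neisseria and 1 with Fusobacterium (median -0.21), a split that became 7 and 6 under library totals and 7 and 8 under log2(TPM + 1). The share of gastric markers called, 61.9%, was under the 66.6% of all tested genes. The 26 pancreatic markers, of which 16 to 20 were at 0 in each of these libraries, summed to 21.8 to 27.7 TPM with Fusobacterium and 39.7 to 46.7 TPM with Neisseria, without overlap, against 371 to 498 TPM in untreated libraries. Untreated values of genes that pancreas also uses are therefore no plain baseline for stomach. The pancreatic sums rest on 144 to 166 counts with Fusobacterium and 256 to 304 with Neisseria. By the test between the bacteria, 2 of 19 tested pancreatic markers were higher with Neisseria and 17 did not pass. That is 10.5% called, against 66.6% of all tested genes. The 15 leukocyte markers, of which 3 to 9 were at 0 in a library, summed to 46.2 to 52.0 TPM with Fusobacterium and 37.5 to 39.2 TPM with Neisseria, again without overlap. Most of that sum is Cd68, a lysosomal protein, singled out after its values were seen, at 40.2 to 43.1 TPM with Fusobacterium and 28.3 to 30.03 TPM with Neisseria. The other 14 markers summed to 5.36 to 8.91 and 7.44 to 10.8 TPM, which overlap, and the pan-leukocyte gene Ptprc stood at 0.17 to 0.81 and 0.44 to 1.02 TPM. The 13 markers of stroma and vessels summed to 8.97 to 11.3 TPM with Fusobacterium and 8.10 to 9.23 TPM with Neisseria. The 9 intestinal markers, of which 2 to 4 were at 0, summed to 921 to 957 and 933 to 952 TPM. Both of these overlap between the bacteria. The part of other cell types in the differences below was not tested.

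Several of the pathways that differed are well described. Hypoxia-inducible factors bind DNA when prolyl hydroxylases lack oxygen or iron, and switch on glycolysis, mitophagy and their own hydroxylases. Kinases that sense missing amino acids or a crowded endoplasmic reticulum raise ATF4, which acts on genes of amino acid supply and on the factor CHOP (Ddit3), while ATF6 and XBP1 act on chaperone genes. NRF2 governs glutathione synthesis and peroxide repair, NF-kB the chemokines, and Notch and Wnt signals the balance of stem and differentiated cells in stomach glands.

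Promoter sequences are shown first for the stress genes, because members of those lists hold known response elements near their starts. RefSeq promoters (build GRCm38.p6, from 250 bases before to 50 bases after the start, 300 bases) were matched by symbol for 9961 of the 12805 tested genes. The ER stress response element, CCAAT followed after any 9 bases by CCACG, on either strand, was found in 9 of 26 unfolded protein response genes with a promoter (34.6%) and in 0.191% of all tested genes with one (0.137% of all 27025 genes in the promoter table). A shorter form, ATTGG, any 1 base and CCACG, was found in 2 of 26 (7.69%), against 0.0803% of tested genes and 0.0444% of all. The sites are printed with capitals for the element and lower case for 6 flanking bases, on the strand that reads as the element does. Coordinates are those of the capitals, and the base is the element's first base on the gene's strand, counted from the start of transcription.
Hspa5, chr2:34772025-34772043, plus strand, base -65: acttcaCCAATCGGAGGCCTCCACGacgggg
Hsp90b1, chr10:86705638-86705656, minus strand, base -212: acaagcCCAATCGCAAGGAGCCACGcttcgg
Hsp90b1, chr10:86705533-86705551, plus strand, base -107: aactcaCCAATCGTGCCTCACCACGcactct
Creld2, chr15:88819520-88819538, minus strand, base -126: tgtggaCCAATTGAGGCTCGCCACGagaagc
Derl3, chr10:75893242-75893260, minus strand, base -156: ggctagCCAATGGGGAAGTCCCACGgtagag
Syvn1, chr19:6046532-6046550, plus strand, base -44: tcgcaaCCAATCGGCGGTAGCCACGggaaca
Pdia6, chr12:17266491-17266509, plus strand, base -98: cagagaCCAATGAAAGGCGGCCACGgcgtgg
Dnajc3, chr14:118937827-118937845, plus strand, base -105: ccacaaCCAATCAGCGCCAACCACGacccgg
Calr, chr8:84847075-84847093, plus strand, base -162: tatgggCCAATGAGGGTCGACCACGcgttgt
Canx, chr11:50325800-50325818, minus strand, base -145: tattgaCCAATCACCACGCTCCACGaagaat
Herpud1, chr8:94386377-94386387, plus strand, base -52: gcgctgATTGGGCCACGttggac
Dnajb11, chr16:22857852-22857862, plus strand, base 8: gcggcgATTGGCCCACGcctggc

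The letters between the fixed ends differ from gene to gene, and Hsp90b1 holds the element in both orientations. Each of these 11 genes was higher with Neisseria, as were 27 of the 32 tested genes of the whole list. Whether members with and without the element differ was not tested. The whole promoter of Hspa5, the chaperone BiP, is printed with the element in capitals.
Hspa5, chr2:34771840-34772139, plus strand: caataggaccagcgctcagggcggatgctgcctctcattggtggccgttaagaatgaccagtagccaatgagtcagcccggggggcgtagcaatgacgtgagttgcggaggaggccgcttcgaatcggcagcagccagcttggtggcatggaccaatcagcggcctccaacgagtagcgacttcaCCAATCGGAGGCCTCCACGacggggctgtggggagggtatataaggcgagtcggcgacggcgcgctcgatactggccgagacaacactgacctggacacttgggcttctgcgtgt

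The composite element read by ATF4 with C/EBP partners, TGATGNAA on either strand, was found in 4 of 19 integrated stress response genes (21.1%) and in 9 of 25 genes of amino acid supply and tRNA charging (36%), against 2.76% of tested genes and 4.51% of all genes. Capitals mark the element.
Trib3, chr2:152344039-152344046, plus strand, base 15: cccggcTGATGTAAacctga
Chac1, chr2:119351049-119351056, minus strand, base -193: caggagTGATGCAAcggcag
Nupr1, chr7:126625573-126625580, plus strand, base -110: cctgtcTGATGCAAtctggc
Vldlr, chr19:27216820-27216827, minus strand, base -200: gagcgcTGATGCAActattg
Asns, chr6:7693225-7693232, minus strand, base -23: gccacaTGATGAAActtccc
Aars, chr8:111033730-111033737, minus strand, base -112: ctcggcTGATGCAAtgctca
Aars, chr8:111033851-111033858, minus strand, base 10: gcgctcTGATGAAAagtgac
Gars, chr6:55037971-55037978, minus strand, base -30: ggtgcaTGATGAAAtagcgc
Iars, chr13:49682137-49682144, minus strand, base 8: tggaggTGATGCAAtactga
Tars, chr15:11399666-11399673, plus strand, base -15: accagcTGATGCAAcgggac
Yars, chr4:129189906-129189913, plus strand, base 4: ctcagcTGATGCAAcccgac
Pycr1, chr11:120643844-120643851, minus strand, base -103: tgtgtaTGATGCAAtgcaca
Slc1a4, chr11:20332710-20332717, plus strand, base -4: tggagaTGATGCAAcgcagg
Got1, chr19:43524700-43524707, plus strand, base -102: cttgtaTGATGCAAccaatg

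Aars, which charges alanine onto its tRNA, holds the element at 2 places. Of these 13 genes, Slc1a4, a carrier of neutral amino acids, and Got1, which makes aspartate, were higher with Fusobacterium, and the other 11 were higher with Neisseria. Over the whole lists, 19 of 23 integrated stress response genes and 28 of 36 amino acid genes were higher with Neisseria. The promoter of Chac1, which degrades glutathione, shows the element in capitals far upstream of the start.
Chac1, chr2:119350992-119351291, plus strand: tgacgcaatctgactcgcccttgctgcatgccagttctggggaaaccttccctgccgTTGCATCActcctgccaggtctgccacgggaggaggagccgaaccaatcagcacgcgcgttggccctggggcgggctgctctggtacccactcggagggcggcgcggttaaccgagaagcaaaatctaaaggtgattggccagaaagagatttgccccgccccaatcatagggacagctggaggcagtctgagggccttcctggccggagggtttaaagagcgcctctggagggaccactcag

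The hypoxia response core ACGTG, on either strand, was found in 14 of 20 hypoxia genes (70%) and 14 of 20 genes of glycolysis and lactate (70%), against 29.1% of tested genes and 21.8% of all genes. So short a core overlaps other motifs, and CACGTG counts on both strands. Among other lists its share ran from 0% for the aryl hydrocarbon receptor (0 of 8) to 54.5% for the MYC network (6 of 11). It was 50% for stem cell and Wnt genes (8 of 16), a list mostly higher with Fusobacterium. The promoter of Ankrd37 has the core at bases -241 and -6, in capitals.
Ankrd37, chr8:45999801-46000100, minus strand: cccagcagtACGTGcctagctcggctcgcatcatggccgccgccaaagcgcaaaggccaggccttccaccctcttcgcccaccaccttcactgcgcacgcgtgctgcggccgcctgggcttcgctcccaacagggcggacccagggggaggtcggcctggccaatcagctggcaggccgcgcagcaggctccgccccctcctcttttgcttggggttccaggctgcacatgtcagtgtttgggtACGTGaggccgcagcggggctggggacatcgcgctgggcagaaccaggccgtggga

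A match describes letters in a window and is neither a bound site nor a cause.

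Oxygen-regulated genes formed one of the clearest contrasts. Of 27 tested hypoxia genes, 24 were higher with Neisseria and 3 with Fusobacterium, with a median log2 fold change of -1.07 against -0.0059 over all genes. Ankrd37, a small ankyrin-repeat protein and well-known target of hypoxia-inducible factor (ENSMUSG00000050914, chr8:45996902-46005707), stood at 8.68, 8.43 and 9.53 normalised CPM with Fusobacterium and 146, 137 and 119.5 with Neisseria. The Neisseria libraries all lay above, 15.1-fold by the fit (log2 fold change -3.92 ± 0.095, adjusted p = 4.5e-19). Untreated organoids held 7.401 ± 0.849, close to the Fusobacterium level. Without strand in the counting, reads of Ankrd37 cannot be told apart from those of Ufsp2 and Lrp2bp, which overlap it on the opposite strand. Bnip3, a receptor for removal of mitochondria, stood at 53.5, 65.1 and 62.8 with Fusobacterium and 311, 298 and 306 with Neisseria (log2 fold change -2.34 ± 0.061, adjusted p = 3.8e-19), and untreated at 18.05 ± 0.557. Here both bacterial groups lay above untreated, the Neisseria libraries several times further.

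The oxygen sensors themselves split by role. The hydroxylase Egln3, which marks the factors for breakdown and is one of their targets, reached 183, 199.8 and 189 with Fusobacterium and 889, 883 and 905 with Neisseria (log2 fold change -2.23 ± 0.046, adjusted p = 2.5e-21). Egln1 differed by -1.87 ± 0.053 (adjusted p = 9.5e-19). Transcripts of the factors ran the other way. Hif1a stood at 183, 184 and 186 with Fusobacterium and 94.8, 99.04 and 105 with Neisseria, and Epas1, the HIF-2 alpha gene, at 17.1, 18.7 and 17.3 and 4.38, 3.68 and 5.14. Both were thus higher with Fusobacterium, without overlap, by 0.89 ± 0.047 (adjusted p = 1.1e-13) for Hif1a and 2.01 ± 0.13 (adjusted p = 6.3e-12) for Epas1. Against the pattern of the targets, Pfkfb4, which sets the level of a glycolysis activator, was higher with Fusobacterium, by 1.56 ± 0.16 (adjusted p = 1.3e-08). Ndrg1, Ero1l (an oxidase of the endoplasmic reticulum), P4ha1 (collagen prolyl hydroxylase) and Kdm3a (a histone demethylase) were 4 of the 18 targets higher with Neisseria. Ero1l stood at 859, 1012 and 943 with Fusobacterium and 4059, 4201 and 4300.2 with Neisseria, or 4.46-fold (adjusted p = 5.1e-20). Vegfa, the vessel growth factor, differed by -1.07 ± 0.052 (adjusted p = 2.1e-14) from an untreated level of 44.4 ± 2.95, with means of 149 ± 2.404 with Fusobacterium and 313 ± 14.3 with Neisseria. The hydroxylase relatives that remove methyl groups from histones and nucleic acids also leaned to Neisseria, with 14 of 19 higher there and 3 higher with Fusobacterium, of which Tet1 differed by 2.198 ± 0.34 (adjusted p = 4.5e-06).

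Glycolysis followed the same side. Of 20 tested genes of glycolysis and lactate, 17 were higher with Neisseria and 3 with Fusobacterium (median -0.91). Along the pathway, the glucose transporter Slc2a1 differed by -0.57 ± 0.043 (adjusted p = 6.2e-11), hexokinase Hk2 by -1.65 ± 0.044 (adjusted p = 2.4e-19), the liver form of phosphofructokinase, Pfkl, by -2.01 ± 0.044 (adjusted p = 6e-21) and phosphoglycerate kinase Pgk1 by -1.13 ± 0.041 (adjusted p = 1e-16). Lactate dehydrogenase Ldha stood at 729, 736 and 729.7 with Fusobacterium and 1785, 1743 and 1730.0 with Neisseria, while untreated organoids held 720.4 ± 22.4. Fusobacterium organoids were thus near the untreated level of Ldha and Neisseria organoids 2.395-fold above the Fusobacterium level (adjusted p = 2.6e-18). Pdk1, which holds pyruvate back from mitochondria, differed by -2.15 ± 0.076 (adjusted p = 2e-16) and the lactate exporter Slc16a3 by -1.75 ± 0.052 (adjusted p = 2e-18). The 3 genes higher with Fusobacterium were the muscle form Pfkm (1.04 ± 0.088), the lactate carrier Slc16a1 (0.43 ± 0.042) and Hk1 (0.15 ± 0.043). Both lists kept their side under every scaling tried, with 23 and 16 members higher with Neisseria under library totals and 21 and 16 under log2(TPM + 1).

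**Figure D3:**
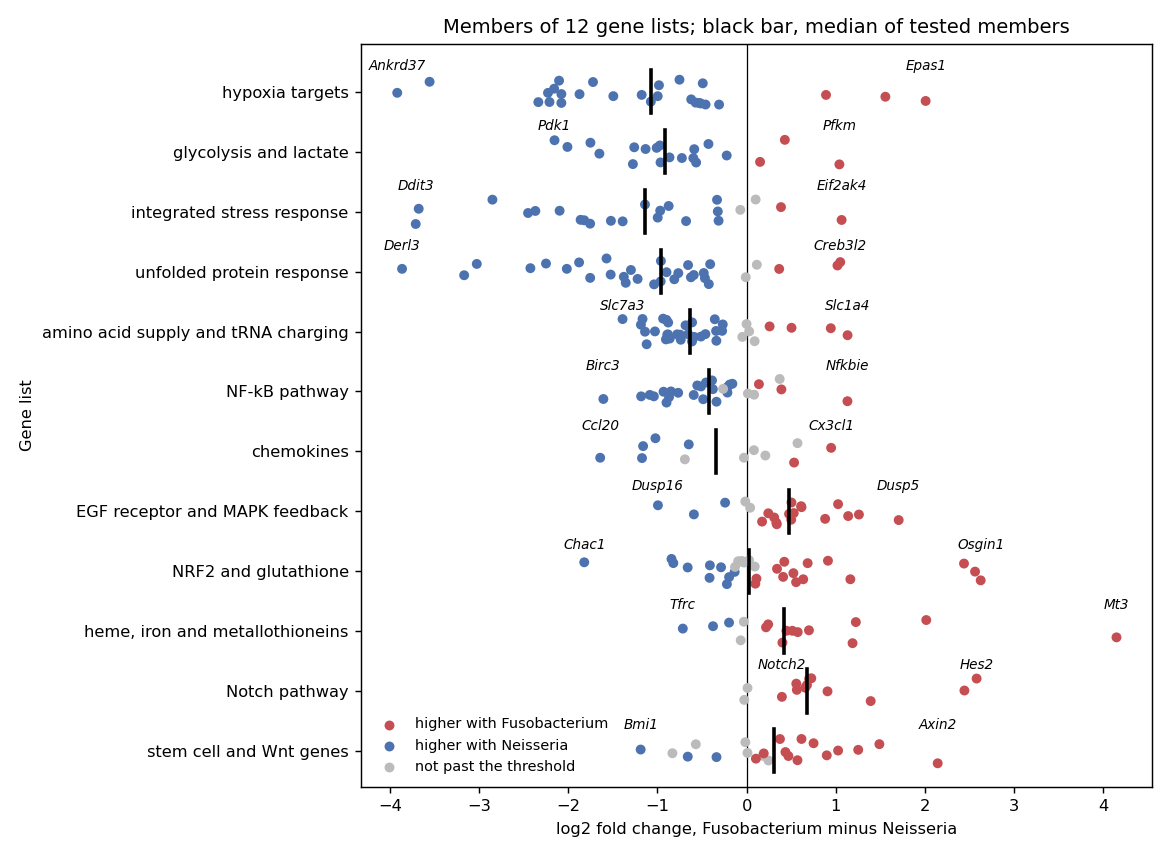
Log2 fold change (x axis, Fusobacterium minus Neisseria) of each tested member of 12 gene lists, with the median as a black bar and points shifted up or down at random for visibility. Members of the hypoxia, glycolysis, integrated stress and unfolded protein lists lie mostly left of 0, with Ankrd37, Pdk1, Ddit3 and Derl3 at the far left, and the Notch list lies to the right up to Hes2.

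The integrated stress response was also far higher with Neisseria. Of 23 tested genes, 19 were higher with Neisseria and 2 with Fusobacterium (median -1.14). Atf4, the central factor, stood at 270.2, 285 and 273 with Fusobacterium and 626, 585 and 613 with Neisseria (log2 fold change -1.14 ± 0.042, adjusted p = 1.2e-16). Ddit3, the death-associated factor CHOP (ENSMUSG00000025408, chr10:127290774-127296288), was at 11.4, 10.8 and 12.9 with Fusobacterium, 163, 152 and 144 with Neisseria and 4.36, 5.07 and 5.86 in untreated libraries. The Neisseria libraries stood apart at 13.1-fold the Fusobacterium level (adjusted p = 1.8e-18). Ddit3 overlaps Mars on the opposite strand, a gene that differed by -0.46 ± 0.056 (adjusted p = 1.3e-07). It also overlaps Gm4189 on the opposite strand and another entry named Ddit3 on the same strand. Trib3, a pseudokinase that restrains AKT (ENSMUSG00000032715, chr2:152337422-152344032), was at 10.8, 10.6 and 10.3 and 140.1, 129 and 137, again without overlap (log2 fold change -3.68 ± 0.069, adjusted p = 5.3e-22). Chac1 stood at 33.3, 34.4 and 31.1 with Fusobacterium and 112, 118 and 119.6 with Neisseria, and at 2.600 ± 0.966 untreated. Both bacterial groups were far above the untreated level of Chac1, and Neisseria was 3.53-fold above Fusobacterium (adjusted p = 3e-14). Nupr1, a stress-induced chromatin protein, differed by -2.45 ± 0.064 (adjusted p = 1.4e-16), Atf5 by -2.37 ± 0.08 (adjusted p = 2.2e-17) and Ppp1r15a, which ends the response by restoring eIF2 alpha, by -1.52 ± 0.06 (adjusted p = 3.5e-16). The 2 genes higher with Fusobacterium were kinases that start it, Eif2ak4 (GCN2, the sensor of uncharged tRNA, 1.07 ± 0.093) and Eif2ak1 (the heme-regulated kinase, 0.39 ± 0.06).

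Amino acid supply went with it. Of 36 genes, 28 were higher with Neisseria and 4 with Fusobacterium, and 15 of 19 cytosolic tRNA synthetases were higher with Neisseria with none of the 19 higher with Fusobacterium. Asns, asparagine synthetase, stood at 156, 148 and 161 with Fusobacterium and 296, 295 and 297 with Neisseria, against 156 ± 8.37 untreated. The Fusobacterium and untreated levels of Asns were close, and the Neisseria libraries were all higher (log2 fold change -0.94 ± 0.046, adjusted p = 2.3e-14). Aars differed by -1.17 ± 0.043 (adjusted p = 9.2e-17) and the amino acid exchanger pair Slc7a5 and Slc3a2 by -1.12 ± 0.057 (adjusted p = 4.1e-14) and -1.14 ± 0.042 (adjusted p = 1e-16). Slc1a4 and the glutamine carrier Slc1a5 (0.50 ± 0.054) were the exceptions among transporters, with Slc1a4 at 207, 215 and 206 with Fusobacterium and 93.02, 91.5 and 102 with Neisseria (log2 fold change 1.13 ± 0.049, adjusted p = 2.6e-15). The transsulfuration enzyme Cbs (0.94 ± 0.12) and Got1 (0.26 ± 0.059) were also higher with Fusobacterium. Under library totals the split was 8 and 26, and under log2(TPM + 1) 8 and 23.

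The unfolded protein response separated the groups by function. All 14 tested chaperone genes were higher with Neisseria, as were 10 of 11 genes of degradation and export, while the sensors and factors split 3 and 3 of 7. Hspa5 stood at 924, 913 and 933 with Fusobacterium and 4515, 4325 and 4331 with Neisseria. Untreated libraries held 913, 913 and 941, so Fusobacterium and untreated levels were side by side and Neisseria 4.76-fold above Fusobacterium (adjusted p = 1.6e-22). Herpud1, a membrane protein of the degradation complex, was at 123, 127 and 114 with Fusobacterium and 983, 970.1 and 1006 with Neisseria (log2 fold change -3.03 ± 0.054, adjusted p = 2.2e-22). Dnajb9, a co-chaperone of BiP (ENSMUSG00000014905, chr12:44205559-44210326), was at 23.5, 23.4 and 26.2 and 218, 221 and 216, and untreated at 47.3, 44.9 and 47.8. Here the Fusobacterium libraries lay below the untreated libraries and the Neisseria libraries above them (log2 fold change -3.17 ± 0.065, adjusted p = 2.1e-21 between the bacteria). Hsp90b1 (GRP94) differed by -1.75 ± 0.041 (adjusted p = 2.2e-20), Creld2 by -2.42 ± 0.057 (adjusted p = 2.2e-20) and Derl3, a pore subunit of the degradation complex that is scarce here, by -3.86 ± 0.37 (adjusted p = 3.1e-09). Derl3 had 4, 13 and 7 counts with Fusobacterium and could pass the filter through the Neisseria group. Xbp1, the factor spliced by the sensor IRE1, was higher with Neisseria (-1.36 ± 0.046, adjusted p = 2.2e-17), while Ern1, the gene of that sensor, was higher with Fusobacterium (1.02 ± 0.11, adjusted p = 3.5e-07), as were Creb3l2 (1.05 ± 0.082) and Atf6 (0.37 ± 0.054). Gene counts do not separate the spliced and unspliced forms of Xbp1.

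**Figure D4:**
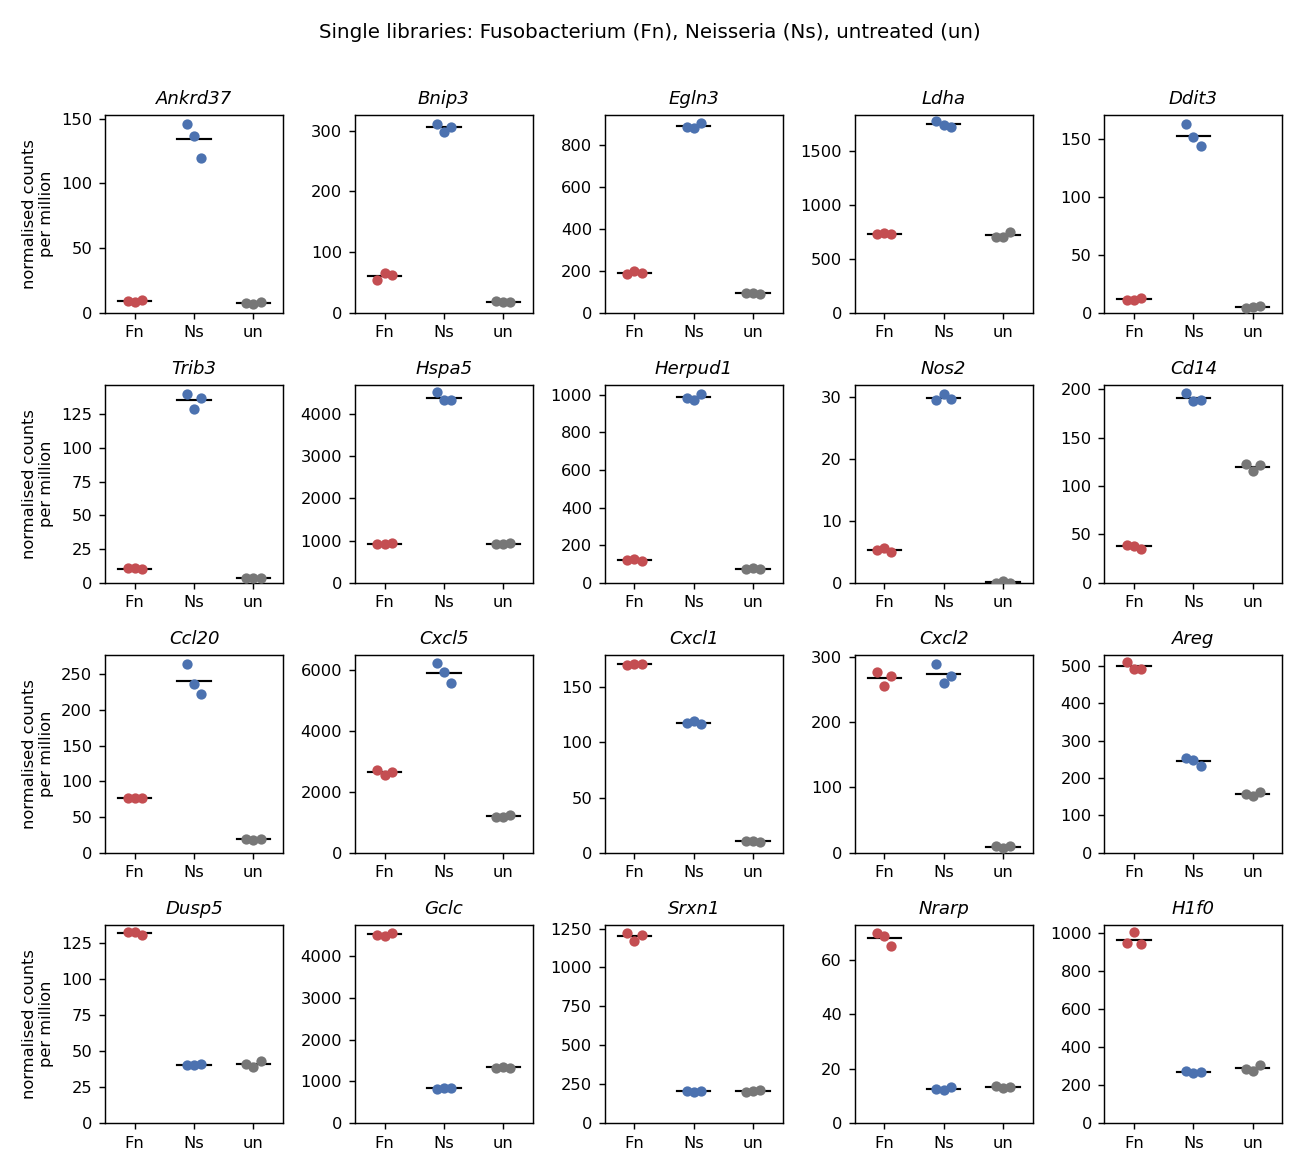
Normalised CPM (y axis, from 0) of 20 genes in each Fusobacterium (Fn), Neisseria (Ns) and untreated (un) library, with the mean of 3 as a bar. From Ankrd37 to Cxcl5 the Neisseria libraries are highest, Cxcl2 overlaps between the bacteria, and Cxcl1, Areg, Dusp5, Gclc, Srxn1, Nrarp and H1f0 are highest with Fusobacterium.

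Inflammatory genes were not uniformly higher with either bacterium. Among 12 tested chemokines, 2 were higher with Fusobacterium, 5 with Neisseria and 5 did not pass the test. The share called, 58.3%, was under the 66.6% of all tested genes, so that share does not set chemokines apart. At least 2-fold, 4 of the 12 were higher with Neisseria and 0 with Fusobacterium. Among all tested genes those shares were 5% and 9.43%. Cxcl2, a neutrophil chemokine, stood at 277, 255 and 271 with Fusobacterium, 289, 260.1 and 271 with Neisseria and 10.2, 7.85 and 9.79 untreated. The bacterial groups overlapped, and the 95% interval of their log2 difference ran from -0.14 to 0.082. Its neighbour Cxcl1 was higher with Fusobacterium, at 170.2, 171 and 171 against 118, 119.6 and 116 with Neisseria (log2 fold change 0.53 ± 0.05, adjusted p = 1.9e-09). Cxcl5, another neutrophil chemokine, was higher with Neisseria, at 2729, 2544 and 2652 with Fusobacterium and 6231, 5922 and 5563 with Neisseria (log2 fold change -1.16 ± 0.055, adjusted p = 5.6e-13). Ccl20, which draws cells bearing CCR6, stood at 77.2, 77.2 and 77.3 with Fusobacterium and 264, 236 and 222 with Neisseria (log2 fold change -1.64 ± 0.068, adjusted p = 6.4e-15). Thus each of these 4 chemokines lay above its untreated level with both bacteria, and the order of the bacteria changed from gene to gene. Cx3cl1 was higher with Fusobacterium (0.95 ± 0.051, adjusted p = 1.5e-13) and Cxcl16 with Neisseria (-1.17 ± 0.044, adjusted p = 1.8e-16). Under library totals the split of the list was 4 and 5, and under log2(TPM + 1) 5 and 5.

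The kappaB letters of chemokine promoters are shown because chemokines on both sides of the comparison hold them. GGG, any 2 bases and TTTCC, on either strand, was found in 4 of 8 chemokine genes with a promoter (50%) and in 2.07% of tested genes (1.89% of all genes), and its variant ending in TTCCC, which can overlap it, in 2 of 8 (25%) against 2.69% of tested genes (2.01% of all genes). The first form is in capitals.
Cxcl1, chr5:90891156-90891165, minus strand, base -89: agtacaGGGTGTTTCCctgcaa
Cxcl1, chr5:90891174-90891183, plus strand, base -71: tactccGGGAATTTCCctggcc
Cxcl2, chr5:90903802-90903811, plus strand, base -97: agctcaGGGAATTTCCctggtc
Cxcl2, chr5:90903821-90903830, plus strand, base -78: gtccccGGGCTTTTCCagacat
Cxcl3, chr5:90786028-90786037, plus strand, base -73: tgcgggGGGAATTTCCccagcc
Ccl20, chr1:83116686-83116695, minus strand, base -80: tcacccGGGGTTTTCCcccatt

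Cxcl1 was higher with Fusobacterium, Cxcl3 (-0.65 ± 0.082, adjusted p = 2.8e-07) and Ccl20 with Neisseria, and Cxcl2 with neither by the test.

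Among cytokines, 10 of 14 were higher with Neisseria and 2 with Fusobacterium. Lif, a cytokine of the interleukin 6 family, stood at 33.04, 32.7 and 31.2 with Fusobacterium and 115, 118 and 119 with Neisseria, against 48.1 ± 2.78 untreated, and Clcf1 of the same family at 4.26, 3.34 and 3.100 and 20.2, 22.1 and 19.4, against 32.3 ± 1.24. Both were higher with Neisseria by the test, -1.87 ± 0.057 (adjusted p = 4.3e-18) and -2.52 ± 0.11 (adjusted p = 3.5e-15), and the Fusobacterium levels lay under the untreated means. Il1rn, the receptor antagonist that blocks interleukin 1, differed by -0.98 ± 0.044 (adjusted p = 4.4e-15). The stress cytokine Gdf15 was higher with Fusobacterium, at 121, 112 and 113 against 54.5, 51.2 and 52.6 (log2 fold change 1.12 ± 0.055, adjusted p = 2.3e-14), and Tnf by 0.37 ± 0.084 (adjusted p = 0.00053). Il17c, which acts on epithelium itself, was at 1.43 ± 0.2302 with Fusobacterium and 2.86 ± 0.267 with Neisseria, near 0 untreated (0.0796 ± 0.0218), and differed by -1.002 ± 0.31 (adjusted p = 0.0063).

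NF-kB genes leaned to Neisseria, with 21 of 28 higher there and 3 higher with Fusobacterium. All 5 subunit genes were among the 21, with Nfkb1 at 64.1 ± 1.74 and 132 ± 3.17 (-1.04 ± 0.052, adjusted p = 3.2e-14) and Relb differing by -1.18 ± 0.089 (adjusted p = 5e-11). The feedback inhibitors split. Nfkbia (I-kappa-B alpha) had a 95% interval of -0.03 to 0.20 and Nfkbiz one of -0.067 to 0.10, both spanning 0, whereas Zc3h12a, an RNase that removes cytokine transcripts, was higher with Neisseria (-1.09 ± 0.056, adjusted p = 5e-14) and Nfkbie with Fusobacterium (1.13 ± 0.15, adjusted p = 4.3e-07). Birc3, an inhibitor of cell death, stood at 35.1, 36.95 and 34.8 with Fusobacterium and 111, 108 and 107 with Neisseria (log2 fold change -1.61 ± 0.061, adjusted p = 1.7e-16). The split was 6 and 17 under library totals and 6 and 15 under log2(TPM + 1).

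Inducible nitric oxide synthase and most epithelial oxidase genes were higher with Neisseria. Nos2 stood at 5.21, 5.62 and 4.903 with Fusobacterium, 29.4, 30.4 and 29.7 with Neisseria and 0, 0.223 and 0 untreated. Both bacterial groups were above untreated and the Neisseria libraries 5.68-fold above the Fusobacterium libraries (adjusted p = 9.3e-13). Arg2, which competes for the same substrate, ran the other way, at 8.94, 8.54 and 8.23 against 2.16, 2.01 and 1.51 (log2 fold change 2.17 ± 0.21, adjusted p = 2.8e-09). The 8 tested genes of the oxidase group, which includes the superoxide dismutase Sod1, were higher with Neisseria under TMM scaling, among them Duox2 (-1.05 ± 0.076, adjusted p = 3e-08) and its maturation factor Duoxa2, at 119.6, 129 and 119 with Fusobacterium and 398, 373 and 375 with Neisseria (log2 fold change -1.64 ± 0.048, adjusted p = 1.8e-18). The smallest of the 8 differences, that of Sod1 (-0.15 ± 0.048), is within the shift between scalings. The whole list of nitric oxide and oxidase genes split 4 with Fusobacterium and 9 with Neisseria, 4 and 8 under library totals and 5 and 7 under log2(TPM + 1). Of 25 antimicrobial and defence genes, 16 were higher with Neisseria and 1 with Fusobacterium. Among their 13 sensors of microbes, 10 were higher with Neisseria. Cd14, which hands lipopolysaccharide to Tlr4, stood at 39.1, 38.3 and 35.3 with Fusobacterium, 196, 188 and 189 with Neisseria and 122, 116 and 122 untreated. The untreated libraries thus lay between the bacterial groups, which differed by -2.35 ± 0.055 (adjusted p = 2.2e-20). Tlr4 differed by -1.16 ± 0.09 (adjusted p = 9.3e-10), and Tlr5, the flagellin receptor, was the sensor higher with Fusobacterium, from a mean of 0.254 ± 0.167 to 0.883 ± 0.224. The adhesion molecule Vcam1 (ENSMUSG00000027962, chr3:116109949-116129688) was among the 12 largest differences towards Neisseria, at 5.63, 5.67 and 5.75 against 79.5, 74.9 and 73.1 (log2 fold change -3.74 ± 0.12, adjusted p = 2.3e-17). An antisense gene overlaps Vcam1.

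Fusobacterium organoids carried more transcript of EGF receptor ligands and feedback inhibitors. Of 21 ligand and feedback genes, 16 were higher with Fusobacterium and 3 with Neisseria (median 0.48), and the split was 17 and 2 under library totals and log2(TPM + 1). Amphiregulin, Areg, stood at 512, 493 and 493 with Fusobacterium, 253, 249 and 234 with Neisseria and 157, 152 and 164 untreated (log2 fold change 1.03 ± 0.049, adjusted p = 1.3e-14 between the bacteria). Epiregulin, Ereg, differed by 0.88 ± 0.043 (adjusted p = 2.5e-14) and Hbegf by 0.50 ± 0.051 (adjusted p = 6.9e-09). Dusp5, a nuclear phosphatase that switches off ERK, was at 133, 133 and 131 with Fusobacterium and 40.3, 40.4 and 40.99 with Neisseria. The Neisseria and untreated libraries (40.8, 38.6 and 43.3) overlapped for Dusp5, and Fusobacterium was 3.26-fold above Neisseria (adjusted p = 1.1e-17). Spry4 (1.26 ± 0.17, adjusted p = 1e-06) and Errfi1 (0.53 ± 0.041, adjusted p = 6.9e-11), which restrain the receptor and its pathway, went the same way, while Dusp16, which acts on JNK and p38, was higher with Neisseria (-0.99 ± 0.054, adjusted p = 1.4e-13). Of 22 immediate-early factors, 12 were higher with Fusobacterium and 8 with Neisseria. Fosb differed by 1.49 ± 0.20 (adjusted p = 7.7e-07) and Egr1 by 0.97 ± 0.054 (adjusted p = 2.5e-13), with both bacteria below the untreated means of 20.9 ± 1.05 and 128 ± 2.14, while Atf3, a stress-induced repressor, was higher with Neisseria, at 70.1, 74.2 and 65.8 against 173, 171 and 167 (log2 fold change -1.28 ± 0.062, adjusted p = 1.8e-14).

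Antioxidant genes differed in both directions. Of 31 NRF2 and glutathione genes, 14 were higher with Fusobacterium and 10 with Neisseria, or 18 and 6 under library totals and 21 and 6 under log2(TPM + 1), and the 3 largest differences were all towards Fusobacterium. Gclc, the rate-limiting enzyme of glutathione synthesis, stood at 4519.6, 4499 and 4562 with Fusobacterium, 816, 848 and 842 with Neisseria and 1326, 1342 and 1326 untreated. Neisseria lay below untreated and Fusobacterium above it, and the bacteria differed 5.42-fold (log2 fold change 2.44 ± 0.04, adjusted p = 5.1e-23). Srxn1, which repairs peroxiredoxins, was at 1221, 1169.8 and 1208 and 208, 197 and 204, and Osgin1, a growth inhibitor induced by oxidative stress, at 228, 223 and 232 and 37.9, 33.7 and 38.9. These were 5.91-fold and 6.17-fold higher with Fusobacterium, with adjusted p = 4.6e-23 and 4.2e-19. The modifier subunit Gclm differed less (0.56 ± 0.039, adjusted p = 1.5e-11), as did the classical target Nqo1 (0.59 ± 0.038, adjusted p = 2.7e-12). Txnrd1, thioredoxin reductase, differed by 0.91 ± 0.036 (adjusted p = 3.9e-16). The gene of the factor itself, Nfe2l2, was higher with Neisseria (-0.82 ± 0.036, adjusted p = 2.3e-15), as was that of its inhibitor Keap1 (-0.84 ± 0.053, adjusted p = 1.8e-12). The letters of the antioxidant response element, TGAC, any 3 bases and GCA, on either strand, were found in 2 of 27 of these promoters (7.41%), against 3.11% of tested genes and 3.45% of all genes.

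Iron and metal genes leaned to Fusobacterium, with 11 of 16 higher there and 3 with Neisseria. Slc40a1, the iron exporter ferroportin, stood at 71.7, 66.7 and 74.7 with Fusobacterium, 20.01, 17.5 and 15.1 with Neisseria and 32.1, 35.5 and 31.9 untreated, so that the untreated libraries lay between (log2 fold change 2.01 ± 0.085, adjusted p = 1.5e-15). The ferritin chains Fth1 and Ftl1 differed by 0.70 ± 0.048 (adjusted p = 1.1e-11) and 0.22 ± 0.044 (adjusted p = 0.00013), and heme oxygenase Hmox1 was at 727, 719 and 721 and 490.4, 463 and 504, against 69.5 ± 1.53 untreated (log2 fold change 0.57 ± 0.043, adjusted p = 4.8e-11). The transferrin receptor Tfrc, which brings iron in, was higher with Neisseria (-0.72 ± 0.045, adjusted p = 2.1e-12). The metallothioneins Mt1 (0.51 ± 0.059, adjusted p = 3.1e-07) and Mt2 (0.24 ± 0.057, adjusted p = 0.00093) differed modestly, while Mt3, usually a brain form (ENSMUSG00000031760, chr8:94152607-94154146), was at 9.63, 9.44 and 7.67 with Fusobacterium and 0.688, 0.0558 and 0.726 with Neisseria (log2 fold change 4.15 ± 0.39, adjusted p = 1.2e-08), the latter resting on 14, 1 and 13 counts.

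Targets of the aryl hydrocarbon receptor, which senses tryptophan products and pollutants, differed in both directions between the bacteria. Of 11 genes of its pathway, 2 were higher with Fusobacterium and 7 with Neisseria, a split that became 4 and 4 under library totals and 5 and 4 under log2(TPM + 1). Cyp1a1 stood at 179.8, 181 and 186 with Fusobacterium, 137, 135 and 132 with Neisseria and 0.254, 0.223 and 0.492 untreated, and was higher with Fusobacterium (log2 fold change 0.44 ± 0.051, adjusted p = 7.3e-08). Cyp1b1, at 555, 543 and 550.4 and 1063, 1078 and 1069.8, was higher with Neisseria (log2 fold change -0.96 ± 0.035, adjusted p = 8.8e-17), as was Tiparp (-0.45 ± 0.041, adjusted p = 1e-09). Ahr itself had an interval of -0.094 to 0.15.

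The largest differences towards Fusobacterium were mostly genes that were scarce in the other libraries. Genes that scarce could pass the filter through the Fusobacterium group, and ranking by fold favours them. Their scarcity is therefore not read as a result. Lars2, the mitochondrial leucyl-tRNA synthetase (ENSMUSG00000035202, chr9:123366927-123462666), was the exception in abundance. It stood at 1966, 1903 and 1695 with Fusobacterium, 48.1, 53.8 and 99.5 with Neisseria and 35.8, 37.1 and 37.01 untreated. The third Neisseria library lay well above the other two. The Fusobacterium libraries did not overlap the rest (log2 fold change 4.79 ± 0.25, adjusted p = 2.1e-07). Nyap1, a PI3-kinase adaptor of neurons (ENSMUSG00000045348, chr5:137729899-137741607), was at 12.2, 12.5 and 11.9 with Fusobacterium and 0.737, 1.17 and 0.614 with Neisseria. Azin2, which frees ornithine decarboxylase from its inhibitor (ENSMUSG00000028789, chr4:128930233-128962442), was at 22.7, 22.4 and 21.6 and 2.11, 2.51 and 2.29, and Gatsl2 (ENSMUSG00000015944, chr5:134099711-134144343), a relative of the arginine sensor CASTOR1, at 58.6, 57.2 and 57.7 and 5.36, 6.25 and 6.37. Fusobacterium was 14.4-fold, 9.65-fold and 9.67-fold higher, with adjusted p = 1.6e-11, 1.2e-15 and 4.3e-18. Tmem121, Cldn9, Dpf1, Fam131c, Aqp11, Rhov and the gene model Gm13283 complete the 12 largest. Among them Dpf1, a neuronal subunit of a chromatin remodelling complex, differed by 3.77 ± 0.28 (adjusted p = 4.2e-11), and Aqp11, a water channel of intracellular membranes, by 3.29 ± 0.22 (adjusted p = 6.9e-12). Rhov, a GTPase, differed by 3.205 ± 0.46 (adjusted p = 1e-05), and by 3.79 without the first Neisseria library. Gm13283 rests on 1, 5 and 0 counts in the Neisseria libraries, against 80, 62 and 55 with Fusobacterium. Antisense genes overlap Dpf1 and Azin2 and a pseudogene overlaps Gm13283.

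All tested genes were also grouped by untreated level. Among 2770 genes with 1 to 10 normalised CPM in untreated organoids, 18.3% were at least 2-fold higher with Fusobacterium and 7.51% with Neisseria. At 10 to 100 the shares were 3.93% of 6746 and 4.06%, and at 100 or more 0.57% of 2105 and 3.66%. Genes under 1 could pass the filter through the group where they are high, so no share is drawn from them. Neuronal and synaptic genes could pass the filter in the same way. The plots of list medians and of list shares include that list, but its median and shares are not read as a result. Single members are given here only by their own levels and tests. Nefm, a neurofilament, was at 3.52, 2.23 and 3.100 with Fusobacterium and 0.295, 0.167 and 0.447 with Neisseria (log2 fold change 3.26 ± 0.48, adjusted p = 2.9e-06), and Syngr3, a synaptic vesicle protein, at 8.05, 8.27 and 8.91 and 1.62, 0.558 and 1.56 (log2 fold change 2.73 ± 0.31, adjusted p = 4.8e-08). Kif1a, a vesicle motor, differed by 1.32 ± 0.086 (adjusted p = 3.8e-12). The linker histone H1f0, typical of cells that have stopped dividing, stood at 945, 1003 and 941 with Fusobacterium, 273, 262 and 269 with Neisseria and 283, 275 and 305 untreated. Neisseria and untreated levels of H1f0 were close, and Fusobacterium was 3.596-fold above Neisseria (adjusted p = 5.2e-20). Of the histone deacetylases, Hdac5 (0.82 ± 0.068, adjusted p = 2.4e-10) was higher with Fusobacterium and Hdac7 (-0.73 ± 0.085, adjusted p = 6.5e-08) with Neisseria.

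**Figure D5:**
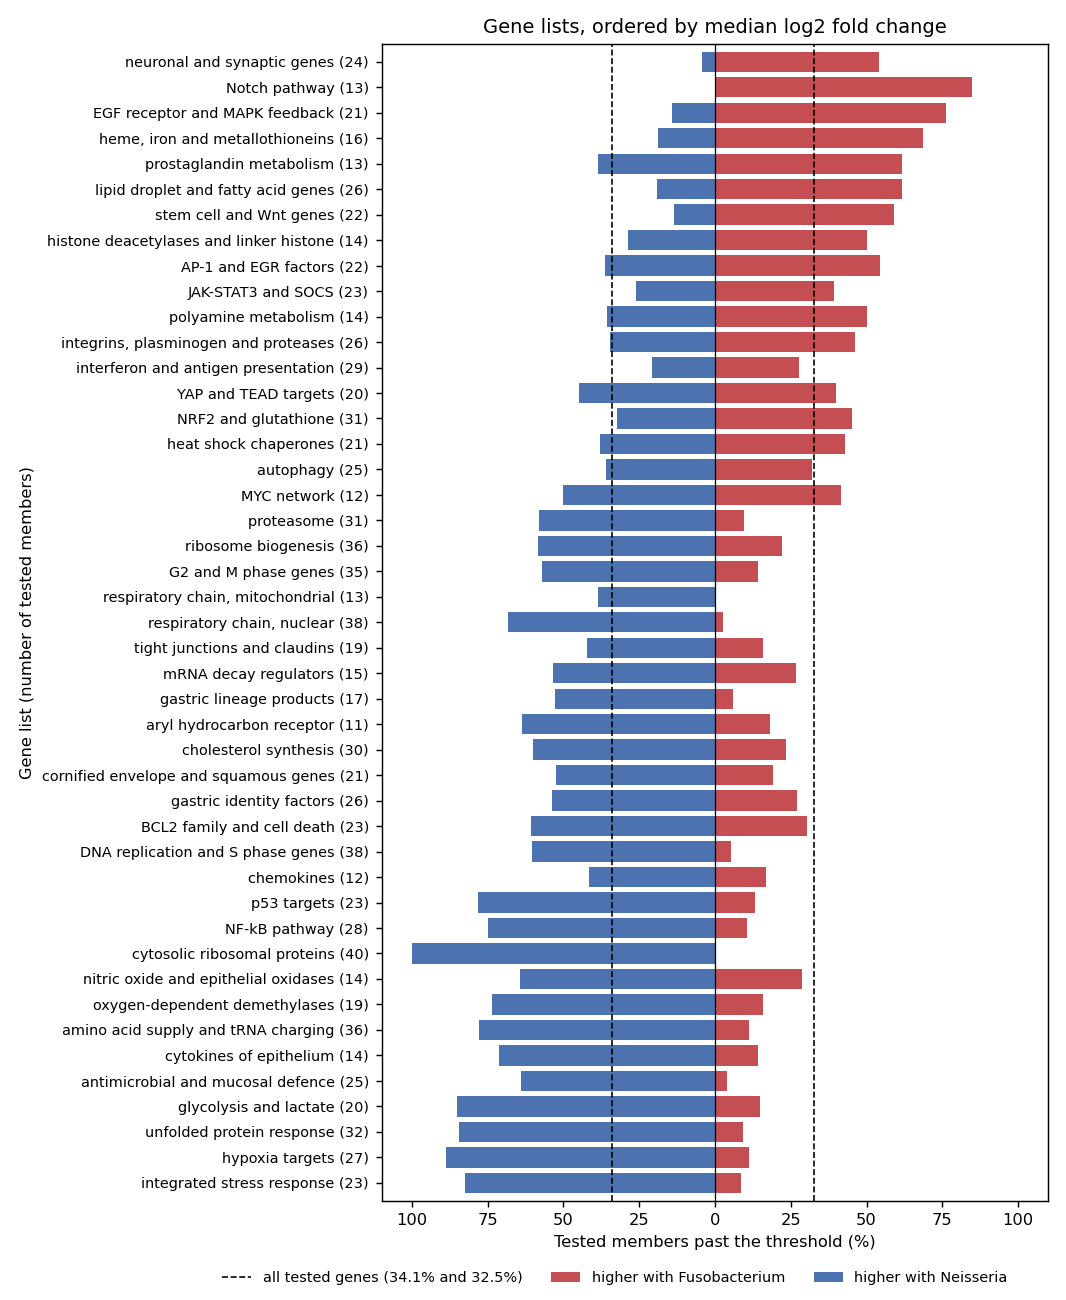
Share of tested members of each gene list (x axis, %) higher with Fusobacterium, to the right, or with Neisseria, to the left, with lists ordered by median log2 fold change and the shares of all tested genes dashed. All 40 ribosomal protein genes and 24 of 27 hypoxia genes are on the Neisseria side, and 11 of 13 Notch genes on the Fusobacterium side.

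Genes of Notch and Wnt signalling were mostly higher with Fusobacterium. In the Notch list, 11 of 13 genes were higher with Fusobacterium and none of the 13 with Neisseria (median 0.68), which held under library totals (11 and 0) and log2(TPM + 1) (12 and 0). Nrarp, a feedback inhibitor of Notch, was at 69.97, 68.7 and 65.3 with Fusobacterium and 12.3, 11.99 and 13.2 with Neisseria (log2 fold change 2.44 ± 0.076, adjusted p = 4.8e-18), and untreated at 13.7, 13.03 and 13.4. The receptor Notch1 differed by 0.68 ± 0.071 (adjusted p = 1.3e-08) and Hes1, a repressor that Notch induces, by 0.56 ± 0.07 (adjusted p = 2.5e-07). Of 22 stem cell and Wnt genes, 13 were higher with Fusobacterium and 3 with Neisseria. Axin2, the usual readout of Wnt signalling, stood at 13.5, 13.3 and 12.3 against 2.31, 3.79 and 2.79 (log2 fold change 2.14 ± 0.18, adjusted p = 3.3e-10), with untreated libraries at 4.57, 3.68 and 5.56, and Ephb3 differed by 1.49 ± 0.063 (adjusted p = 1.5e-15). The stem cell receptor Lgr4 was higher with Fusobacterium (1.03 ± 0.049, adjusted p = 1.4e-14), while Lgr5 had an interval of -0.26 to 0.23 and Ascl2 was higher with Neisseria (-0.66 ± 0.29, adjusted p = 0.046). In the hedgehog pathway the ligand Ihh was at 1.26, 1.64 and 0.958 with Fusobacterium and 5.900, 6.13 and 6.09 with Neisseria, under its untreated mean of 16.3 ± 1.39 with both (log2 fold change -2.22 ± 0.18, adjusted p = 2.6e-10). Its target Gli1 had 22, 46 and 37 counts with Fusobacterium and 0, 2 and 0 with Neisseria, and Ptch1 differed by 0.65 ± 0.095 (adjusted p = 2.4e-06).

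Several gastric identity factors were higher with Neisseria. Of 21 transcription factors, 12 were higher with Neisseria and 4 with Fusobacterium, and with 5 hedgehog genes the list split 14 and 7, or 13 and 9 under library totals and 11 and 10 under log2(TPM + 1). Foxa1, a pioneer factor of foregut epithelium, stood at 74.8, 74.1 and 79.5 with Fusobacterium, 230.1, 233 and 219.8 with Neisseria and 192, 189 and 195 untreated, so the Fusobacterium libraries lay lowest (log2 fold change -1.58 ± 0.046, adjusted p = 1.3e-18). Gata6 differed by -1.09 ± 0.067 (adjusted p = 1.5e-12) and Spdef, a factor of mucous cells, by -1.12 ± 0.076 (adjusted p = 7.8e-12), whereas Sox2 and Gata4 had intervals of -0.27 to 0.25 and -0.11 to 0.14. Among products, the neck cell genes Muc6 (-1.08 ± 0.16, adjusted p = 0.0003) and Tff2 (-1.03 ± 0.083, adjusted p = 3.5e-08) and the chief cell pepsinogen Pgc (-1.64 ± 0.16, adjusted p = 8.7e-09) were higher with Neisseria. Pit cell Muc5ac did not pass the test (log2 fold change 0.30 ± 0.34, adjusted p = 0.46). Bhlha15 (MIST1), a secretory factor of chief and pancreatic acinar cells (ENSMUSG00000052271, chr5:144190286-144194441), was at 0.421, 1.22 and 0.507 with Fusobacterium and 14.8, 16.00 and 17.3 with Neisseria (log2 fold change -4.47 ± 0.24, adjusted p = 6.5e-13). Without the second Fusobacterium library the log2 fold change of Bhlha15 was -5.09. Its untreated level of 7.06 ± 0.987 comes from libraries that hold pancreatic transcripts. In these 6 libraries the pancreatic marker sums were also higher with Neisseria, as given above, though 17 of 19 tested markers did not pass the test. The part of pancreatic transcripts in the Bhlha15 difference was not tested. Across the 17 products, 9 were higher with Neisseria and 1 with Fusobacterium, and 6 and 2 under library totals and log2(TPM + 1). The share called, 58.8%, was under the 66.6% of all tested genes. The list's median of -0.23 changed side to 0.0031 with limma on log2(TPM + 5).

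Surface and junction genes are given by family. The cornified envelope list of 21 had 11 members higher with Neisseria and 4 with Fusobacterium, or 10 and 7 under library totals. Of its 10 small proline-rich genes, which build the cornified envelope, 9 were higher with Neisseria and none of the 10 with Fusobacterium. Sprr2e (ENSMUSG00000055030, chr3:92352143-92353449) was at 0.2104, 0.265 and 0.169 with Fusobacterium and 5.605, 4.96 and 6.31 with Neisseria, the largest difference towards Neisseria by the naming rule (log2 fold change -4.67 ± 0.39, adjusted p = 2.6e-10), while Sprr2a2 differed by -0.62 ± 0.042 (adjusted p = 7.7e-12). Sprr2e had 4, 5 and 3 counts with Fusobacterium and was scarce in untreated organoids (0.12 ± 0.116). It could pass the filter through the Neisseria group, so its rank is not read as a result. Near-identical copies in this family can share reads, so values of single members are uncertain. Claudins split 2 and 4 of 10, with the stomach claudin Cldn18 higher with Neisseria (-0.64 ± 0.035, adjusted p = 2.3e-13) and the pore-forming Cldn2 with Fusobacterium (0.57 ± 0.039, adjusted p = 7.1e-12), from an untreated level of 356 ± 2.65 above both. The junction list of 19, claudins included, split 8 and 3 towards Neisseria, but 7 and 7 under library totals. Its share called was 57.9%, under the 66.6% of all tested genes. Tjp3 differed by -1.02 ± 0.041 (adjusted p = 4.8e-16) and Cdh1 (E-cadherin) had an interval of -0.15 to 0.015. In the plasminogen system the activator Plat stood at 702, 680.2 and 696 with Fusobacterium and 277, 289.9 and 280.3 with Neisseria, and untreated at 121, 116 and 117 (log2 fold change 1.295 ± 0.039, adjusted p = 2.3e-18). Timp3, an inhibitor of matrix proteases, was at 35.1, 35.5 and 35.4 with Fusobacterium and 3.93, 3.46 and 4.52 with Neisseria (log2 fold change 3.15 ± 0.11, adjusted p = 5.6e-17), with untreated libraries between at 11.2, 12.6 and 10.2. Integrin Itgb6 was higher with Neisseria (-1.35 ± 0.047, adjusted p = 4.1e-17) and Itgb5 with Fusobacterium (0.95 ± 0.076, adjusted p = 1.5e-10).

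Lipid genes split by pathway. Of 11 genes of fatty acid oxidation and PPAR response, 8 were higher with Fusobacterium and 1 with Neisseria. Cpt1a, which admits fatty acids to mitochondria, stood at 164, 163 and 163 with Fusobacterium, 65.4, 68.03 and 74.3 with Neisseria and 125, 125 and 118 untreated, so that Neisseria was lowest (log2 fold change 1.24 ± 0.057, adjusted p = 6.9e-15). Pdk4 differed by 2.66 ± 0.46 (adjusted p = 2.4e-05) at a low level (2.19 ± 0.504 and 0.349 ± 0.219). Of 19 enzymes of cholesterol synthesis, 14 were higher with Neisseria and 2 with Fusobacterium, among them Msmo1 (-0.69 ± 0.046, adjusted p = 5.8e-12) and Mvd (-0.82 ± 0.065, adjusted p = 1.2e-10), while the sterol exporters Abca1 (1.08 ± 0.21, adjusted p = 8.2e-05) and Abcg1 (1.67 ± 0.17, adjusted p = 6.8e-09) were higher with Fusobacterium. The whole cholesterol list of 30 changed from 7 and 18 to 11 and 12 under library totals and 12 and 12 under log2(TPM + 1). Prostaglandin genes also parted, with all 5 of breakdown, transport and reception higher with Fusobacterium, such as the receptor Ptger4 (1.18 ± 0.089, adjusted p = 4.7e-11) and the exporter Abcc4 (0.89 ± 0.052, adjusted p = 6.7e-13), and the terminal synthase Ptges higher with Neisseria (-0.81 ± 0.056, adjusted p = 1.2e-11). Cyclooxygenase Ptgs2 was higher with Fusobacterium by 0.29 ± 0.039 (adjusted p = 8.8e-07).

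Genes of p53 response and S phase were mostly higher with Neisseria. Of 23 p53 targets, 18 were higher with Neisseria and 3 with Fusobacterium (14 and 4 under library totals), among them the death receptor Fas (-1.48 ± 0.12, adjusted p = 2.4e-10) and Bbc3 (PUMA, -1.35 ± 0.13, adjusted p = 8.6e-09), while Plk3 was higher with Fusobacterium (1.18 ± 0.10, adjusted p = 2.5e-10). The BCL2 and caspase list of 23 had 14 higher with Neisseria and 7 with Fusobacterium, or 12 and 9 under library totals. There, Casp9 (1.197 ± 0.10, adjusted p = 1.4e-10) was higher with Fusobacterium and Casp8 (-0.84 ± 0.054, adjusted p = 3.3e-12) and the pore protein Gsdmd (-1.296 ± 0.044, adjusted p = 3e-17) with Neisseria. Of 38 S phase genes, 23 were higher with Neisseria and 2 with Fusobacterium, which were E2f2 (1.93 ± 0.16, adjusted p = 2.7e-10) and Ccne1 (0.93 ± 0.10, adjusted p = 1.5e-08), and the split was 15 and 5 under library totals. Among 35 G2 and M phase genes, Kif23 (-1.29 ± 0.046, adjusted p = 6.2e-17) and Ccna2 (-0.76 ± 0.048, adjusted p = 2.3e-12) were higher with Neisseria, but the list's split of 20 and 5 turned to 8 and 9 under library totals and 7 and 12 under log2(TPM + 1). All 40 cytosolic ribosomal protein genes were higher with Neisseria (median -0.43), and 35 of the 40 were under library totals, as were 35 under log2(TPM + 1). Ribosome biogenesis, with 21 higher with Neisseria and 8 with Fusobacterium, turned to 11 and 10, the nuclear respiratory chain from 26 and 1 to 5 and 8, and the proteasome from 18 and 3 to 6 and 9 under library totals. Those 3 lists therefore show no direction that holds across scalings.

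Set against untreated organoids, the lists show on which side of the baseline the bacteria lay. Both comparisons share the untreated libraries, and 65.3% of all tested genes differed from untreated with Fusobacterium and 50.8% with Neisseria. By direction, 32.8% and 32.4% were higher and lower with Fusobacterium than untreated, and 25.4% and 25.5% with Neisseria. In the unfolded protein list, 6 genes were higher and 14 lower than untreated with Fusobacterium, and 27 higher and 3 lower with Neisseria. Amino acid supply had 9 higher and 11 lower with Fusobacterium and 29 higher and 3 lower with Neisseria. For hypoxia genes the counts were 18 and 3 with Fusobacterium and 23 and 4 with Neisseria, and for NF-kB genes 22 and 2 and 27 and 0. Gastric lineage products had 1 higher and 15 lower with Fusobacterium and 6 higher and 8 lower with Neisseria. The Notch list had 8 higher and 4 lower with Fusobacterium and 1 higher and 5 lower with Neisseria.

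The remaining lists had no clear side. Interferon and antigen presentation genes had 8 of 29 members higher with Fusobacterium and 6 with Neisseria, and 15 and 2 under library totals. Usp18, a brake on interferon signalling, was at 2.42, 3.71 and 2.65 with Fusobacterium and 0.688, 0.502 and 0.279 with Neisseria (log2 fold change 2.55 ± 0.39, adjusted p = 4.7e-06), and Irf7 differed by 1.58 ± 0.34 (adjusted p = 0.00026), while Ifit3 was higher with Neisseria (-1.26 ± 0.50, adjusted p = 0.032). In the JAK-STAT3 list, 9 of 23 were higher with Fusobacterium and 6 with Neisseria. The receptors of related cytokines parted there, with Lifr, the receptor of LIF, higher with Fusobacterium (1.83 ± 0.087, adjusted p = 1.3e-14) and Osmr, that of oncostatin M, higher with Neisseria (-1.700 ± 0.063, adjusted p = 1.1e-16). Of 21 heat shock genes, 9 were higher with Fusobacterium and 8 with Neisseria, a split of 10 and 5 under library totals. Hspb1, a small chaperone, stood at 19.2, 17.5 and 16.5 against 5.56, 6.02 and 4.803 (log2 fold change 1.699 ± 0.13, adjusted p = 4e-11), and Hspa1a, whose near-identical copy Hspa1b can share its reads, differed by 1.57 ± 0.088 (adjusted p = 2.5e-13). Of the YAP and TEAD list, 8 of 20 were higher with Fusobacterium, such as Axl (1.39 ± 0.093, adjusted p = 6.6e-12), and 9 with Neisseria, such as Ajuba (-1.19 ± 0.046, adjusted p = 2.9e-16), and the counts turned to 10 and 8 under library totals. The MYC network split 5 and 6 of 12, with Myc itself higher with Neisseria (-0.86 ± 0.057, adjusted p = 4.7e-12), and 6 and 4 under library totals. Polyamine genes split 7 and 5 of 14, mRNA decay regulators 4 and 8 of 15, autophagy genes 8 and 9 of 25, and mitochondrially encoded respiratory genes 0 and 5 of 13. In the same order these became 9 and 2, 6 and 7, 13 and 5, and 3 and 4 under library totals.

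A further 4 genes were among the 12 largest differences towards Neisseria. Adm2, a vasoactive peptide, was at 2.95, 1.43 and 1.13 with Fusobacterium and 29.99, 27.8 and 27.03 with Neisseria (log2 fold change -3.93 ± 0.19, adjusted p = 6e-13). Ciart, a repressor of the circadian clock that overlaps an antisense gene, differed by -3.28 ± 0.18 (adjusted p = 1.4e-13), Kctd14 by -3.56 ± 0.094 (adjusted p = 3.3e-19) and Ifit1bl1 by -3.196 ± 0.25 (adjusted p = 1.3e-10). By TPM, the largest gap towards Fusobacterium was that of Clu, a secreted chaperone, at 11924 ± 48.8 TPM against 9014 ± 198 TPM (log2 fold change 0.17 ± 0.037, adjusted p = 0.00033 on counts).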

How the data were processed

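RNA of 12 organoid libraries was sequenced, and the 3 Fusobacterium and 3 Neisseria libraries were compared. Per the file headers, the authors deposited raw counts per gene, which are whole numbers. The authors' TPM columns, named so in the headers, are scaled for gene length. Coordinates follow GRCm38, the build that the submitters' processing notes name. The aligner, counter and strand use are not given in the sources used here. Another 24 deposited columns of RPKM and CPM were not used.

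Counts were fitted with edgeR 4.0.16 (R 4.3.3), by robust quasi-likelihood with TMM scaling. Its default filter on low counts kept 12805 genes with 99.96% of counts. All 12 libraries entered a single model without a replicate block, tests were two-sided, and p was adjusted over all tested genes. The common coefficient of biological variation was 5.71%. Standard errors were obtained as the size of the log2 fold change over the root of F. The script was tested on simulated counts. Replicates differed by more than counting noise (chi-square per degree of freedom 2.26 to 7.47). The column headers of all 6 libraries carry the mark L1, whose meaning is not given in the sources used here.

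Members and the 45 gene lists were chosen with earlier results of these data known. The rule names the 12 largest fold changes and the 5 largest TPM differences in each direction (adjusted p under 0.05; for folds also at least 5 mean TPM in the higher group and no overlap), up to 4 members of a list with the smallest adjusted p, and members needed to describe a list's roles. Not every gene it allows is named. Alternatives were limma 3.58.1 on log2(TPM + 1), DESeq2 1.42.0, other scalings and filters, fewer libraries and a replicate block; leaving out untreated libraries was added after seeing the data. Symbols, IDs and coordinates are those of the deposited table, and overlaps were read from GENCODE M21.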

Additional observations from a re-analysis of the deposited data

How the results depend on the processing

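Of 8527 genes past the threshold, the count was 8515 with median-of-ratios scaling, 8597 with library totals alone, 8380 with DESeq2, 8682, 8668 and 8678 with limma on log2(TPM + 1), log2(TPM + 0.1) and log2(TPM + 5), 8637 with the 6 libraries alone, 8619 with only the libraries whose headers carry L1, 8555 of 17495 with no filter beyond 1 count and 7732 with a filter at a mean of 50 counts. Similar counts did not mean the same genes. Library totals lost 1435 of the 8527, and limma on log2(TPM + 1) lost 1798. Of 6729 genes past the threshold under both TMM scaling and log2(TPM + 1), 6676 kept their direction. The 1848 genes of at least 2-fold became 1183 with limma on log2(TPM + 1), 419 with log2(TPM + 5) and 1165 with the filter at a mean of 50 counts. A larger pseudocount shrinks the folds of scarce genes, and the filter tests fewer genes. Leaving out 1 Fusobacterium, Neisseria or untreated library (the last added after seeing the data) gave 8030 to 8515 genes past the threshold and 1783 to 1848 of at least 2-fold. Against untreated it gave 7763 to 8416 with Fusobacterium and 5727 to 6437 with Neisseria. Of the 209 genes that the naming rule picks, 197 had a value under the filter at a mean of 50 counts and 208 with the 6 libraries alone, and no value reversed. The threshold was missed by 5 of them under library totals, 5, 4 and 5 under limma with 1, 0.1 and 5 added, 1 under the replicate block, 2 to 5 without 1 Fusobacterium or Neisseria library and up to 1 without 1 untreated library. Replicate numbers are shared between the groups, but same-numbered libraries deviated together with correlations of 0.047, 0.0049 and 0.026, so they were not taken as pairs; with the replicate block 8543 genes passed. Scarce genes rest on few counts, and small differences depend on the scaling.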
